A study of Mus musculus with 4 samples.

Results

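The genes described here are 10 transcription factors, regulators and marker genes of mouse embryonic stem cells: Pou5f1, Esrrb, Klf5, Tdh, Dnmt3l, Dppa2, Dppa4, Tcl1, Fbxo15 and Jam2. They were taken as a fixed list of names, and all 10 were found among the 9997 gene symbols of the expression table used here. RNA was sequenced from embryoid bodies, the floating aggregates that embryonic stem cells form when they start to differentiate, grown from the mouse line ES-E14TG2a. There were 4 libraries, each the only library of its group. The control was embryoid bodies labelled as such, with no ATRA named. The other 3 groups were embryoid bodies treated with ATRA, all-trans retinoic acid, which cells make from vitamin A and read through nuclear receptors. They were labelled 0, 6 and 10 days. ATRA was added at 5 µM on culture days 4 and 6, and embryoid bodies were moved to dishes coated with ornithine and laminin after 8 days in suspension. The stem cells behind all 4 groups had been kept in serum with leukemia inhibitory factor (LIF), and the embryoid body medium named in the protocol has serum and no LIF. The labels give neither the culture day of the control nor the event from which the 0, 6 and 10 days are counted, so ATRA cannot be told apart from culture age in any comparison with the control. With 1 library per group there is no replicate check, no SD and no p-value, and all values describe these 4 libraries.

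Embryonic stem cells keep the ability to form all tissues of the embryo through a network of transcription factors that sustain one another, with Oct4, the product of Pou5f1, at its centre. Esrrb and Klf5 belong to the naive layer of this network, which LIF supports. When LIF is withdrawn or retinoic acid is given the network is switched off, and genes such as Tdh, Tcl1, Fbxo15 and Dppa4 are widely used as markers of the cells that still run it. Some of these genes are also used elsewhere: Pou5f1 and Dnmt3l in germ cells, Klf5 in epithelia and the early trophectoderm, Jam2 at junctions of endothelium.

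Levels are given as FPKM, fragment counts scaled to transcript length and to library size, which can be compared between genes. Differences are on the scale log2(FPKM + 1), which shrinks changes of genes with low values, and a gene is called higher or lower at 2-fold or more on that scale. A minimum of 1 FPKM in 1 or more of the libraries left 5885 genes to compare, and all 10 genes of the list were among them. The depth was estimated from the FPKM worth of a single fragment as 24500000 to 27300000 fragments per library. Numbers of fragments and counting errors below are estimates from that depth and a median transcript length, and cover counting error only.

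Because the 10 genes were lower together after ATRA, the sequence just upstream of their starts is shown for those with an entry in the RefSeq promoter table (GRCm38.p6, the mm10 build). That table held 4 of the 10 genes: Pou5f1, Esrrb, Dnmt3l and Tcl1. The stretches below run 5′ to 3′ on the strand of the gene and stop before any annotated exon of that gene. Pou5f1 lies at chr17:35505782-35506017 on the plus strand, Esrrb at chr12:86360867-86361116 on the plus strand and Tcl1 at chr12:105222794-105222987 on the minus strand. The Dnmt3l window begins inside an annotated exon and is not shown. Capitals mark matches to the motifs searched, written as CCGCCC where the match is on the opposite strand.
Pou5f1: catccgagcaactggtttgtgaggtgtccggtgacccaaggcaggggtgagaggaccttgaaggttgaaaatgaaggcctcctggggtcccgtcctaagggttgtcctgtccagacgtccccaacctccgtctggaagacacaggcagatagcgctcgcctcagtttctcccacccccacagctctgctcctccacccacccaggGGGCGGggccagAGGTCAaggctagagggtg
Esrrb: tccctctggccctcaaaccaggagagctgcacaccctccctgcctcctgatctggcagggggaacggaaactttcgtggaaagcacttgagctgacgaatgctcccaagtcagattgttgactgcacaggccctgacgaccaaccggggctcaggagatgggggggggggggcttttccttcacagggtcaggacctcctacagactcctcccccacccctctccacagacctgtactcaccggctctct
Tcl1: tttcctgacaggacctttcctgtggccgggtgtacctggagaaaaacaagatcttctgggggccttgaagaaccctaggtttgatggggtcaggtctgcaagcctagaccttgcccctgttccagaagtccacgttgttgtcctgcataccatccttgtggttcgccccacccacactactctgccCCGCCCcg
The search covered the 250 bases before the most upstream RefSeq start, on both strands, for 5 motifs. These were the nuclear receptor half-site AGGTCA, the GC box GGGCGG, the octamer ATGCAAAT, the SOX core CATTGTT and TCAAGGTCA, an extended half-site of estrogen-related receptors that contains the shorter half-site. Pou5f1 held a GC box beginning at base -45 and an AGGTCA at base -33, counted from the start. The GC box was present in 33.0% of the 27025 promoters of the table and AGGTCA in 13.8%. Tcl1 held GC boxes at -64 and -54 on the opposite strand, the second of them inside an annotated exon. No motif matched in the windows of Esrrb and Dnmt3l. The octamer was found in 1.62% of promoters, the SOX core in 3.35% and the extended half-site in 0.366%, and none of the 4 genes held any of these. A match is a run of letters and no evidence of binding.

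In the control library all 10 genes were among the abundant transcripts, between 52.3 FPKM for Fbxo15 and 1241 FPKM for Pou5f1, with a median of 124 FPKM. All 10 were lower in the 3 ATRA libraries than in the control, at each of the 3 labelled times. At 0 days they kept a median of 7.66% of the control level, with a range from 0.447% for Tdh to 23.3% for Dppa4. After that they parted: Tdh, Tcl1 and Fbxo15 were higher again at 6 days, and the other 7 were within 2-fold of their 0-day level there. Of these, Dppa2 and Dppa4 had smaller values at 6 and again at 10 days, each step short of 2-fold on the log2(FPKM + 1) scale. In FPKM, the 10-day value of Dppa2 was 0.424 of its 6-day value. In bulk RNA, fewer cells of a type and less RNA per cell cannot be told apart.

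**Figure D1:**
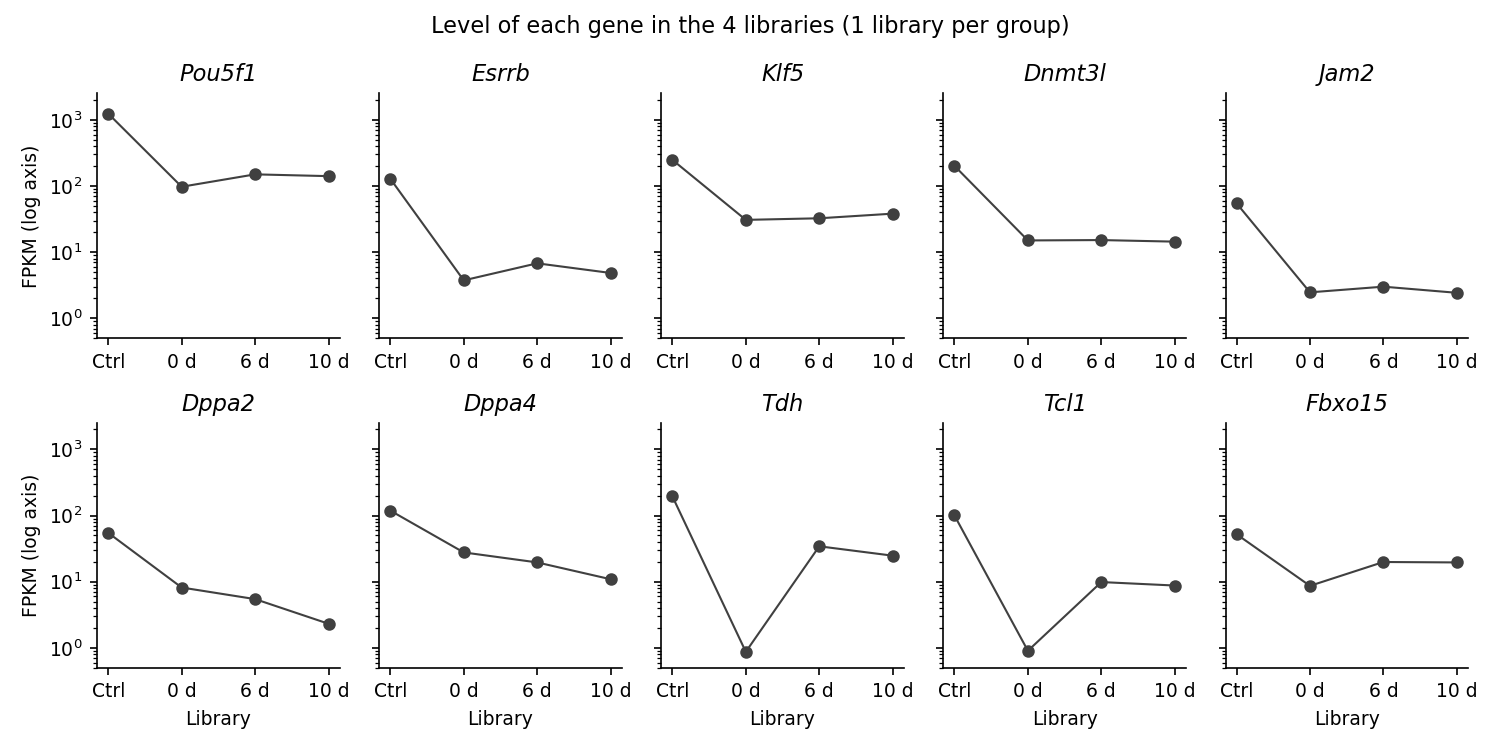
FPKM of each of the 10 genes (vertical log axis) in the control and the ATRA libraries at 0, 6 and 10 days; each point is 1 library, so there are no error bars. All 10 genes are highest in the control. Tdh and Tcl1 drop below 1 FPKM at 0 days and are higher at 6 days. The values of Dppa2 and Dppa4 are smaller in each later library. On the log2(FPKM + 1) scale both steps after 0 days are short of 2-fold, while the 10-day FPKM of Dppa2 is 0.424 of its 6-day value.

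At 0 days all 10 genes were lower than in the control by 2-fold or more, against 12.8% of all 5885 genes. All 10 were also lower by 4-fold or more, against 2.6% of all genes. Under median-ratio and upper-quartile scaling 9 were, since Dppa4 was at -1.90 and -1.81 on the log2 scale. The median log2 difference of the list was -3.66, against -0.04 over all genes. Since the 10 genes are high in the control, the 915 genes at 50 FPKM or more there, the 10 included, are a closer background. Of these 915, 6.45% were lower by 4-fold or more, and their median kept level was 60.7%. The list was drawn with the loss of pluripotency genes in these libraries known, so the count describes how deep the loss was and is no independent evidence of its direction. Over all genes, the balance of the calls depended on the scaling: higher genes made up 48.9% of those called with FPKM as deposited, and 60.6% and 65.6% under median-ratio and upper-quartile scaling. Under each of these scalings all 10 genes were lower by 2-fold or more. None of the 10 was higher, against 12.2% of all genes.

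Pou5f1 (chromosome 17, 35506018 to 35510772, plus strand) encodes Oct4, the POU factor without which the pluripotent state is not kept. It stood at 1241 FPKM in the control and at 97.4, 150 and 141 FPKM in the 0, 6 and 10 day libraries. The control was higher by 12.7-fold than the 0-day library and by 8.28-fold than the 6-day library. Pou5f1 was the most abundant of the 10 genes in every library and supplied 49.7% to 52.7% of their summed FPKM. Even at 0 days it ranked 330th of the 5885 genes by level, after rank 67 in the control. The step from 0 to 6 days, a log2 difference of 0.62, was short of 2-fold, while the counting error was about 1.69% and 1.39% in these libraries. Mouse cells carry processed copies of Pou5f1, and no source used here says how reads shared with them were assigned.

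Esrrb (chromosome 12, 86361117 to 86521628, plus strand), an orphan nuclear receptor that binds many of the same enhancers as Oct4, had 129 FPKM in the control library and 3.75, 6.78 and 4.85 FPKM after 0, 6 and 10 days. The 3 ATRA libraries lay close together and far below the control, at 2.91%, 5.27% and 3.76% of its level. It had the 20th largest fall of all genes at 0 days, and at 10 days its log2 difference from the control, -4.47, was the largest of the 10 genes. The 6-day value exceeded the 0-day value by 1.81-fold in FPKM, short of 2-fold on the log2(FPKM + 1) scale. Its relative Esrrg stayed under 0.223 FPKM in all 4 libraries, and it was the only other estrogen-related receptor in the table.

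Klf5 (chromosome 14, 99298691 to 99315036, plus strand), a zinc finger factor that shares targets with other Krüppel-like factors of stem cells, had 248 FPKM in the control library and 30.8, 32.5 and 38.2 FPKM in the later ones. It was the only gene of the 10 to be highest, among the ATRA libraries, at 10 days. All steps after the first were small, and the control remained 6.50-fold above the 10-day library. Of 6 other Krüppel-like factors in the table, 1 was lower at 0 days and none higher: Klf16 was at 20.6 FPKM in the control and 6.16 at 0 days. Upper-quartile scaling placed 1 of the 6 above 2-fold. Klf10 was lower only from 6 days on, at 63.0, 51.3, 18.8 and 21.9 FPKM from the control to 10 days. Epithelial genes, which Klf5 accompanies in several tissues, were far higher at 6 and 10 days. The 7 simple epithelium markers summed to 189, 317, 2091 and 3711 FPKM over the libraries in the same order, with 3 higher and 1 lower at 0 days and 7 higher at 6 against 0 days, and their part in the Klf5 level was not tested.

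Tdh (chromosome 14, 63492347 to 63509092, minus strand) encodes threonine dehydrogenase, the mitochondrial enzyme through which mouse stem cells turn threonine into glycine and acetyl-CoA. Its level was 195 FPKM in the control, 0.873 FPKM at 0 days, 34.3 FPKM at 6 days and 24.8 FPKM at 10 days. The 0-day value was 224-fold below the control, the deepest loss of the 10 genes and the 11th largest fall of all genes, and rested on about 43.3 fragments with a counting error of about 15.2%. The 6-day value was 39.3-fold above the 0-day value, the 11th largest rise of all genes in that step. Even so, Tdh had only come back to 17.6% of the control level at 6 days and stood at 12.7% at 10 days.

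Genes of related metabolism were read beside Tdh, from a list of 13 names of which 6 were in the table. Gcat, Gldc, Amt and Gcsh were not among those found. Of 6 genes of glycine and one-carbon metabolism in the table, 4 were lower at 0 days, none was called in either direction at 6 against 0 days, and 5 were lower at 10 days than in the control. Median-ratio and upper-quartile scaling each left 4 of these 5. Shmt2, the mitochondrial serine hydroxymethyltransferase, was at 133, 52.9, 38.7 and 32.0 FPKM from the control to 10 days. Shmt1, its cytosolic counterpart, was at 79.8, 17.5, 32.8 and 19.5 FPKM in the same order. Its log2 difference at 6 against 0 days, 0.87, was short of 2-fold. Mthfd1, which handles folate intermediates, was at 137, 50.1, 39.7 and 37.4 FPKM.

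Tcl1 (chromosome 12, 105216750 to 105222793, minus strand), a small protein that binds and activates the kinase Akt, followed the course of Tdh at a lower level. The control had 101 FPKM, the 0-day library 0.905 FPKM, the 6-day library 9.89 FPKM and the 10-day library 8.77 FPKM. The 0-day value was 111-fold below the control and rested on about 24.6 fragments, with a counting error of about 20.2%. At 6 days Tcl1 was 10.9-fold above 0 days and at 9.84% of the control. The 5 paralogs Tcl1b1 to Tcl1b5 lie at lower coordinates of the same chromosome, on the plus strand. Of these, 4 were listed at 0 in all 4 libraries, and Tcl1b2 reached at most 0.177 FPKM, in the control. Reads shared between such similar copies may have been split by the authors' counting, so the zeros of single copies are uncertain.

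Fbxo15 (chromosome 18, 84934782 to 84981473, plus strand), an F-box protein whose locus served as the reporter in early reprogramming work, had 52.3 FPKM in the control library and 8.67, 19.9 and 19.6 FPKM after 0, 6 and 10 days. The 6-day value was 2.29-fold above the 0-day value. It kept more of its control level than any other of the 10 genes late in the series, 38.0% at 6 days and 37.4% at 10 days. The ubiquitin ligase components to which F-box proteins attach were not called at any step: Skp1a was at 242, 192, 236 and 211 FPKM and Rbx1 at 114, 81.0, 131 and 132 FPKM, from the control to 10 days.

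**Figure D2:**
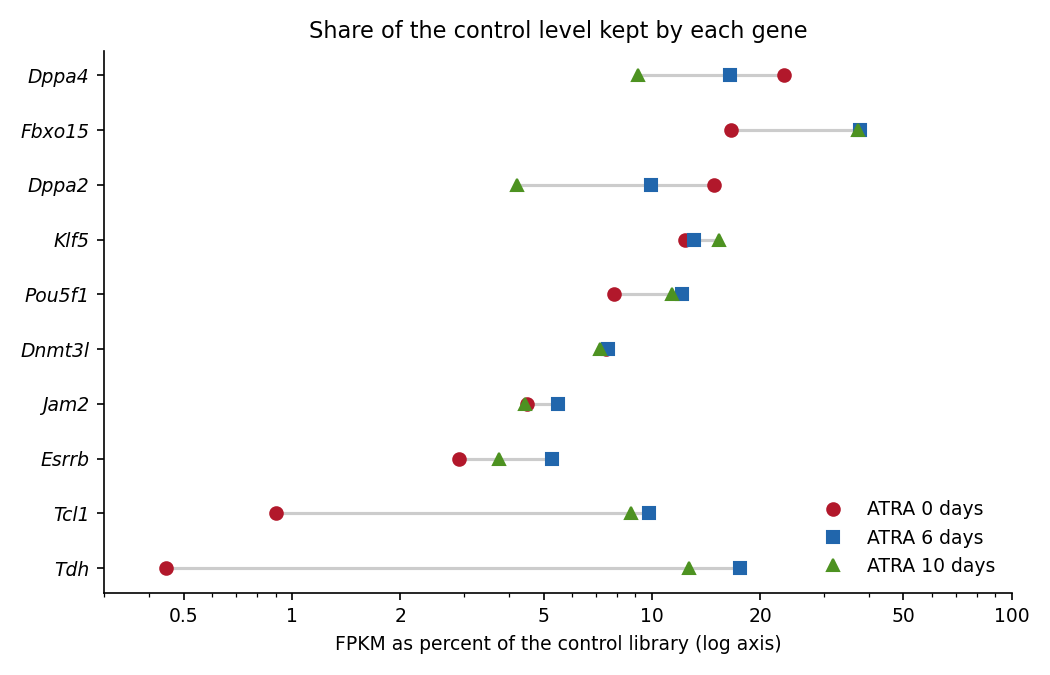
FPKM at 0 days (circles), 6 days (squares) and 10 days (triangles) as a percentage of the control library, on a log axis, for the 10 genes ordered by the 0-day value; each symbol is 1 library. Tdh and Tcl1 lie below 1% at 0 days and near 10% or above at 6 days, while Dppa2 and Dppa4 move further left with time.

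The share of the list that was higher again was close to the share over all genes with a loss of 4-fold or more, a set that includes the 10 genes. At 6 against 0 days, 3 of the 10 genes (Tdh, Tcl1 and Fbxo15) were higher by 2-fold or more, against 8.22% of all genes, and Tdh and Tcl1 by 4-fold or more, against 2.26%. Of the 153 genes that were lower by 4-fold or more at 0 days, the 10 included, 49 were higher by 2-fold or more at 6 days, or 32%. The 0-day library enters both the fall and the rise in these counts. Median log2 differences for this step were 0.41 over the 10 genes, 0.46 over the 153 genes and 0.01 over all genes. None of the 10 was lower by 2-fold at 6 days, against 4.88% of all genes.

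Dnmt3l, Jam2, Klf5, Esrrb and Pou5f1 were within 2-fold of their 0-day level at 6 and 10 days. Esrrb and Pou5f1 had 6-day FPKM values 1.81-fold and 1.54-fold above those at 0 days. The same ratio was 1.01 for Dnmt3l, 1.06 for Klf5 and 1.22 for Jam2. Dnmt3l (chromosome 10, 78041947 to 78063622, plus strand) encodes a partner of the de novo DNA methyltransferases that has no catalytic activity of its own. It was at 202 FPKM in the control and at 15.0, 15.2 and 14.4 FPKM at 0, 6 and 10 days. The 3 ATRA values sat at 7.16% to 7.56% of the control, and their counting errors were about 4.03% to 4.09% each. Of 4 other DNA methylation genes in the table, 1 was higher and 2 lower at 0 days, and none was called at the later steps. The catalytic partner Dnmt3a went the other way at 0 days, at 5.97 FPKM in the control and 20.4 at 0 days, then 10.1 at 6 days and 7.21 at 10 days. Uhrf1, which guides maintenance methylation, was at 177, 42.1, 47.1 and 29.0 FPKM, and Tet1, which oxidises methylcytosine, at 29.5, 3.76, 2.61 and 1.37 FPKM. The gene Aire overlaps Dnmt3l on the opposite strand and was at 21.7 FPKM in the control and 5.73 at 0 days. No source used here says whether the counting was stranded, so reads of these genes cannot be told apart where they overlap.

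Jam2 (chromosome 16, 84774123 to 84825928, plus strand), a junctional adhesion molecule of the immunoglobulin family, was at 54.8 FPKM in the control and at 2.47, 3.01 and 2.43 FPKM at 0, 6 and 10 days. The ATRA libraries lay close together, and the 10-day value was 22.5-fold below the control. Other junction genes were higher where Jam2 was lower. F11r, which encodes the related molecule JAM-A, was at 13.3, 42.8, 60.1 and 95.2 FPKM from the control to 10 days. There were 4 junction genes in the table, of which 3 were higher at 0 days than in the control (4 under either other scaling) and 4 at 6 and at 10 days. Of 12 endothelial markers listed only 3 were in the table, so a level of endothelium cannot be read from them. Cldn5 was at most 1.88 FPKM and Erg at most 0.490 FPKM in any library. Pecam1, which stem cells also express, was at 21.1, 1.37, 4.15 and 2.05 FPKM.

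Dppa2 and Dppa4 encode SAP-domain proteins that act as a pair on chromatin of developmental genes, and lie 9671 bases apart on chromosome 16. Dppa4 (48283733 to 48294237, plus strand) was at 119, 27.8, 19.6 and 10.9 FPKM from the control to 10 days. Dppa2 (48303908 to 48319723, plus strand) was at 54.8, 8.18, 5.47 and 2.32 FPKM. Their losses at 0 days were among the 3 smallest of the list, 4.29-fold for Dppa4 and 6.70-fold for Dppa2. Later steps were each short of 2-fold on the log2(FPKM + 1) scale (differences of -0.51 and -0.96 for Dppa2, -0.48 and -0.79 for Dppa4). In FPKM, the last step of Dppa2 was larger than that, with a 10-day value 0.424 of the 6-day value. At 10 days Dppa4 and Dppa2 stood 10.9-fold and 23.7-fold below the control. By sign alone, with no threshold, they were the only genes of the list with a difference below 0 at all 3 successive steps. Of all 5885 genes, 12.8% rose at none of these steps, unchanged values included. The ratio of Dppa4 to Dppa2 in FPKM was 2.17 in the control, then 3.39, 3.59 and 4.71. Of 8 genes listed as targets of this pair, Mael alone was in the table, at 4.18, 12.7, 3.20 and 1.86 FPKM.

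From 6 to 10 days none of the 10 genes was higher or lower by 2-fold, against 3.7% and 0.85% of all genes. The differences ran from -0.96 for Dppa2 to 0.23 for Klf5, with a median of -0.19 against 0.02 over all genes. Counted by sign with no threshold, 9 of 10 were below 0, among them Fbxo15 at -0.02 and Dnmt3l at -0.07. The ratio of the 10-day to the 6-day FPKM of Dppa2 was 0.424, with about 139 fragments behind the later value, and the gene passed 2-fold with a pseudocount of 0.1 or 0.5 (log2 differences of -1.20 and -1.08) and under upper-quartile scaling (-1.07). At 6 days all 10 genes were lower than in the control by 2-fold or more, against 12.5% of all genes, and 9 by 4-fold or more, against 2.48%. At 10 days the same counts were 10, against 17.1%, and 9, against 3.21%. Fbxo15 was the gene short of 4-fold both times. None was higher, against 15.3% of all genes at 6 days and 19.6% at 10 days. Higher genes were 55.2% of all called at 6 days, and 67.6% under upper-quartile scaling. For 10 against 6 days the same share was 81.3%, and 67.5% under upper-quartile scaling. The comparisons with the control share that library.

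**Figure D3:**
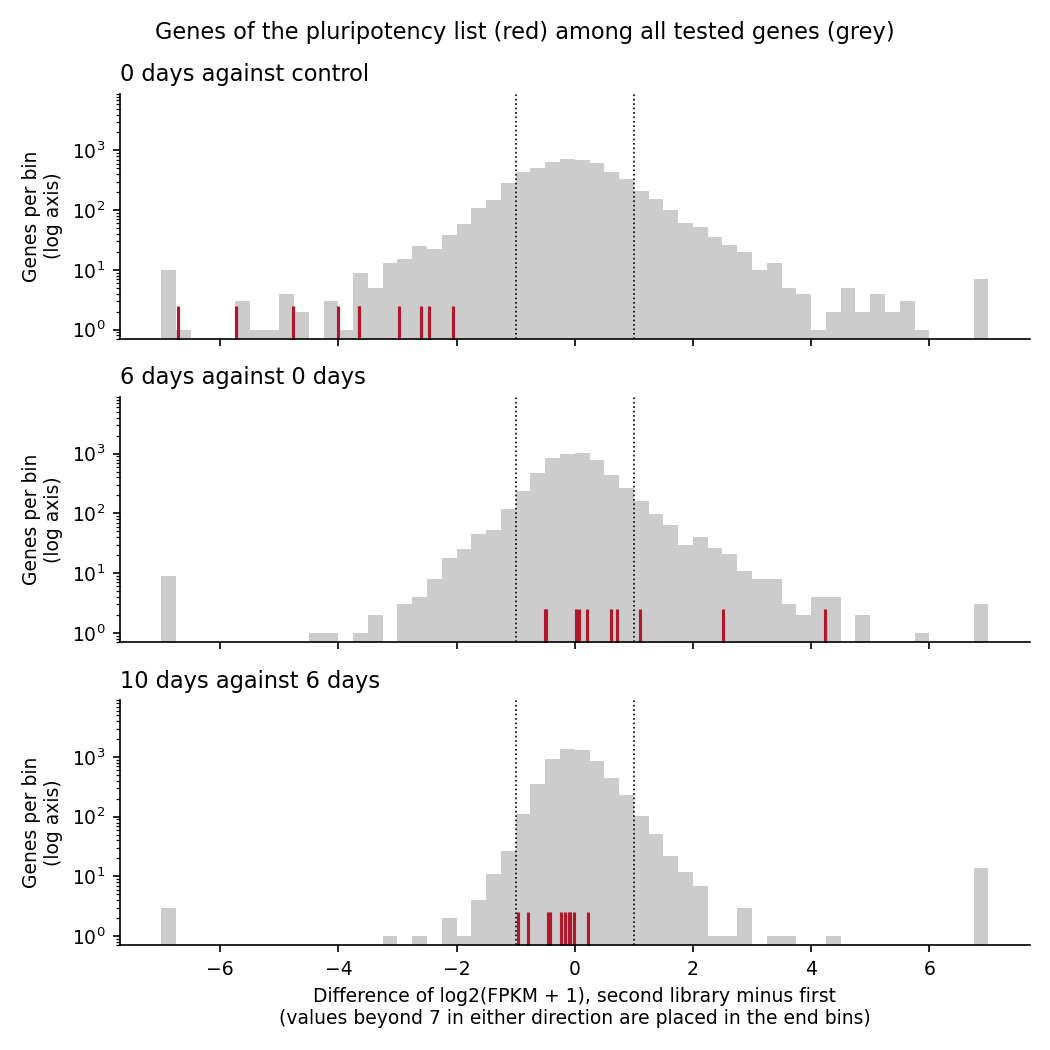
Distribution of the difference of log2(FPKM + 1) over the 5885 genes (grey bars, log count axis) for the 3 successive steps, with the 10 pluripotency genes as red ticks and dotted lines at 2-fold. The 10 ticks all lie left of the lower line at 0 days against the control, 3 lie right of the upper line at 6 against 0 days, and none passes either line at 10 against 6 days.

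The order of the 10 genes by level changed with the loss. From the highest, the control gave Pou5f1, Klf5, Dnmt3l, Tdh, Esrrb, Dppa4, Tcl1, Dppa2, Jam2 and Fbxo15, with Dppa2 (54.8 FPKM), Jam2 (54.8 FPKM) and Fbxo15 (52.3 FPKM) nearly level. Highest and lowest differed by 23.7-fold. At 0 days the span was 112-fold, with Tdh lowest, although only 3 genes had been above it in the control. At 6 days Tdh was back in second place, at 34.3 FPKM beside 32.5 FPKM for Klf5, and Jam2 was lowest at 3.01 FPKM. At 10 days Klf5 was second again, at 38.2 FPKM, and Dppa2 was lowest. There were 6 genes with their lowest value at 0 days and 4 (Dnmt3l, Dppa2, Dppa4 and Jam2) at 10 days. Among the ATRA libraries 7 genes were highest at 6 days, 2 at 0 days and 1 at 10 days. Some of these places rest on nearly equal values. Jam2 was at 2.47 and 2.43 FPKM at 0 and 10 days, with counting errors of about 8.77% and 8.69%. Dnmt3l was at 15.0 and 14.4 FPKM, with about 4.03% and 4.04%. The places were not counted over all genes.

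Courses were also compared between genes, as the Euclidean distance between their 3 differences from the control (at 0, 6 and 10 days, log2(FPKM + 1)). Within the list, Dnmt3l and Jam2 were closest, at 0.49, followed by Pou5f1 and Klf5 at 0.84, Pou5f1 and Dnmt3l at 0.84, and Esrrb and Jam2 at 0.92. Dppa2 and Dppa4 were 1.08 apart and Tdh and Tcl1 1.31. The farthest pair was Esrrb and Fbxo15, at 4.72. Likeness was then sought among 4241 named genes outside the list that reached 5 FPKM somewhere, over these 4 libraries only. Pou5f1 was closest to Ildr1 (distance 0.11), a receptor of the immunoglobulin superfamily, at 33.3, 1.87, 3.38 and 2.94 FPKM. Next after Pipox came Tfcp2l1, a naive pluripotency factor downstream of LIF, at 48.3, 4.08, 4.62 and 6.30 FPKM. The nearest 3 to Klf5 included Zfp57, which protects imprints, at 362, 45.3, 45.7 and 66.3 FPKM.

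Tdh and Tcl1 had the same leading neighbours, Etv4 (distances 1.69 and 0.45) and Krt17 (1.77 and 0.91). Etv4, an ETS factor that responds to FGF signalling, was at 93.1, 0.949, 7.61 and 6.08 FPKM from the control to 10 days. Krt17, an epithelial keratin, was at 45.3, 0.463, 5.41 and 4.67 FPKM. The distance of 1.69 was the largest of any nearest neighbour of the 10 genes, and Etv4 stayed well below Tdh at 6 days. Dppa2 was closest to Tet1 (0.40) and Dppa4 to the deacetylase gene Sirt1 (0.24), which was at 58.3, 13.9, 7.71 and 4.90 FPKM. Fbxo15 was closest to Dmtn (0.16), followed by Slc7a7 and by Tk1, thymidine kinase of dividing cells, at 98.5, 15.6, 43.9 and 34.9 FPKM. Esrrb was closest to Spry4 (0.86), a feedback inhibitor of FGF signalling, and Klf5 to Myo1g (0.07), at 8.17, 0.151, 0.273 and 0.398 FPKM. Dnmt3l (0.41) and Jam2 (0.32) were both closest to Sntg1, at 17.3, 0.269, 0.147 and 0.288 FPKM. With 1 added to values this far under 1 FPKM, a small distance on the log2(FPKM + 1) scale does not mean a like fold in FPKM: Myo1g lost far more of its control FPKM at 0 days than Klf5.

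Other pluripotency genes, from a list of naive and general factors, followed the 10 at the first step. From 49 names, 14 were in the table: 11 were lower at 0 days and 1 higher, and the median log2 difference was -2.65. Either other scaling left 10 lower. Morc1, which silences transposons, was at 28.8, 1.31, 5.28 and 5.38 FPKM, and Tfcp2l1 came next in size. Sox15, a SOX factor of stem cells, was at 21.0, 1.83, 6.79 and 6.83 FPKM. Prdm14, a repressor shared by naive and germ cells, was at 9.64, 0.456, 1.37 and 1.04 FPKM. The gene that was higher was Tex19.1, active in germ cells and placenta, at 22.4 FPKM in the control and 53.6 at 0 days. At 6 against 0 days 4 of the 14 were higher (Sox15, Morc1, Pecam1 and Epcam) and 2 lower (Gbx2 and Tex19.1), with a median of 0.14. From 6 to 10 days none was called. Epcam, an adhesion molecule of stem cells and epithelia alike, was the only one higher at 10 days than in the control, at 51.8, 24.3, 77.4 and 122 FPKM.

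**Figure D4:**
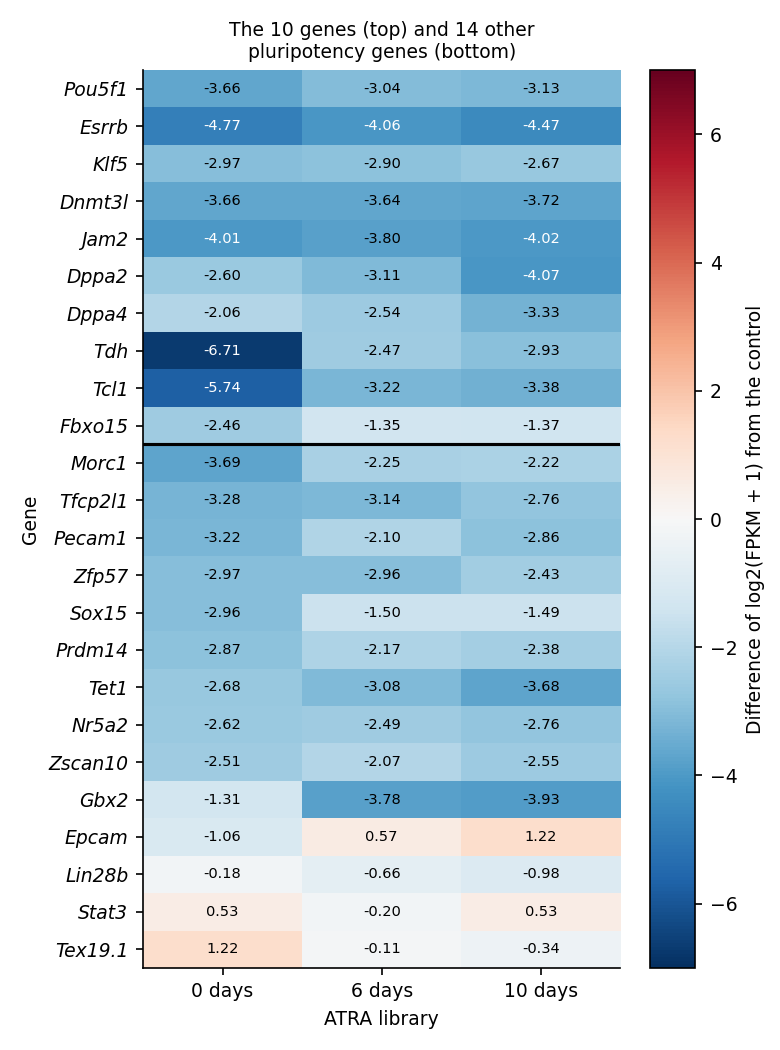
Difference of log2(FPKM + 1) from the control at 0, 6 and 10 days (columns; colour and printed value) for the 10 genes (above the line) and 14 other pluripotency genes (below it), 1 library per column. Every cell of the upper block is negative, while Tex19.1 is positive at 0 days (1.22) and Epcam at 10 days (1.22).

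The genes of the LIF pathway, which supports the naive layer of the pluripotency network in culture, gave a mixed picture. There were 11 in the table, of which 5 were lower at 0 days, none was higher and the median log2 difference was -0.87, and 3 were lower under either other scaling. The 5 were Socs2, Socs3 (-1.08), Pim3 (-1.01), Tfcp2l1 and Gbx2. Tfcp2l1 and Gbx2 are also on the list of other pluripotency genes above and were counted there too. The receptor genes Lifr (21.4, 11.2, 17.9 and 19.6 FPKM) and Il6st (9.98, 12.4, 8.27 and 8.17 FPKM) stayed within 2-fold of the control. Stat3, the factor that carries the signal, was at 22.9, 33.5, 19.9 and 33.5 FPKM. Socs2 was lower at 0 days, at 35.9 and 3.06 FPKM. At 6 against 0 days 1 was higher (Socs2) and 1 lower (Gbx2). At 10 against 6 days 2 of the 11 were higher, Socs3 (12.8 to 31.9 FPKM) and Pim3 (26.6 to 68.6 FPKM), while Esrrb was at 6.78 and 4.85 FPKM in these libraries.

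Genes of the primed and formative epiblast, the stage after naive pluripotency, were split. Among the 14 found, 7 were higher and 4 lower at 0 days (median 0.58), against 12.2% and 12.8% of all genes, and 7 were higher and 2 lower at 6 against 0 days (median 0.59). The median difference at 10 days from the control, -0.05, was above 0 under either other scaling. The 4 lower were Etv4, Etv5, Otx2 and Lefty2, and 3 of the 7 higher, Krt18, Cldn6 and Ocln, are also epithelial genes. Otx2, the factor that redirects Oct4 to new enhancers, was lower at 0 days and back near the control at 6 days, at 5.89, 0.447, 6.09 and 4.47 FPKM. Etv5 was at 114, 8.89, 18.8 and 15.1 FPKM. Lefty1, a Nodal inhibitor, was at 14.7, 38.3, 12.6 and 5.24 FPKM, and Nodal itself at 33.7, 24.7, 6.01 and 4.09 FPKM. Lefty2, also a Nodal inhibitor, was at 70.6 FPKM in the control, with a log2 difference of -2.07 at 0 days, and Krt18 reached 1518 FPKM at 10 days. Only 4 of the 8 other POU genes found reached 1 FPKM, and 1, Pou6f1, was higher at 0 days, at 0.520 and 2.70 FPKM.

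Markers of other cell types moved in the same libraries and are set beside the 10 genes. The 12 extraembryonic endoderm markers summed to 275, 477, 3079 and 4420 FPKM from the control to 10 days, with 10 of 12 higher and 1 lower at 6 against 0 days. Of 5 trophoblast markers at 1 FPKM or more, 3 were higher at that step. The 6 in the table summed to 0.381, 0.123, 49.0 and 84.1 FPKM, and 5 of them were listed at 0 at 0 days. The 8 germ line markers summed to 135, 210, 93.3 and 78.4 FPKM, with 5 higher and 2 lower at 0 days and 5 lower at 6 against 0 days. Neuronal markers summed to 7.87, 9.49, 69.9 and 33.9 FPKM over 6 genes, and 4 neural progenitor markers to 1.21, 32.8, 53.4 and 24.6 FPKM. The summed level of the 10 pluripotency genes was 2397, 196, 297 and 267 FPKM. The part of these cell types in the return of Tdh, Tcl1 and Fbxo15, and in the level of Pou5f1, was not tested. The 4 reference genes had a median log2 difference of -0.76 at 0 days (-0.51 under upper-quartile scaling), and 1 of them, Ppia, was lower, at 5055 and 2183 FPKM. The smallest log2 difference among the 10 pluripotency genes in that comparison was -2.06, for Dppa4.

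**Figure D5:**
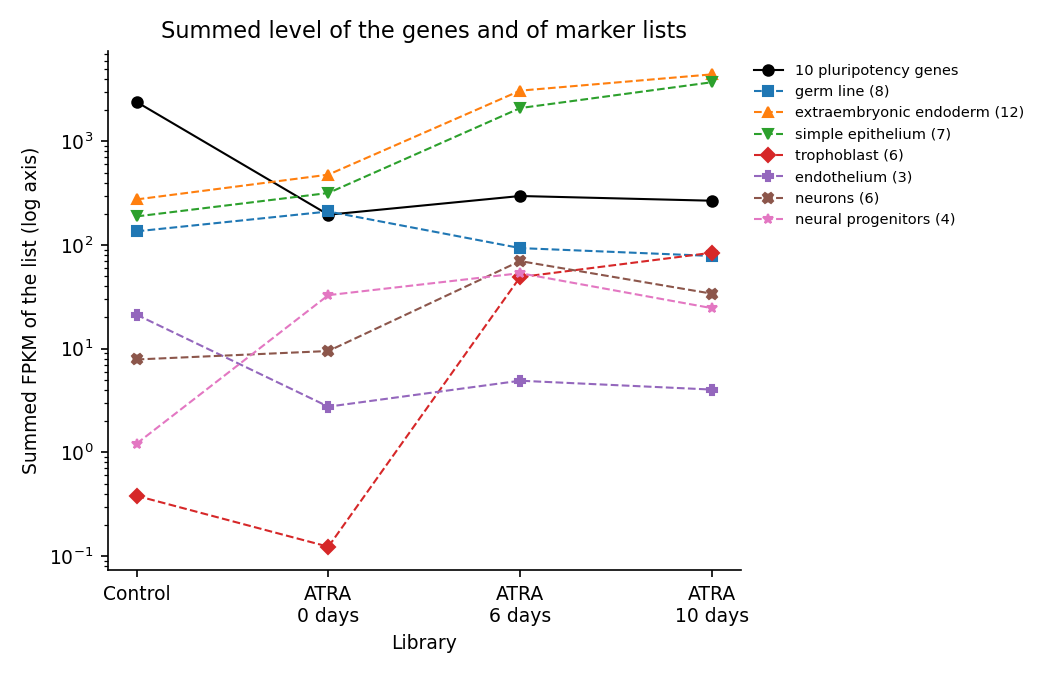
Summed FPKM (log axis) of the 10 pluripotency genes (black, solid) and of 7 marker lists (dashed; number of genes in brackets) in the 4 libraries, 1 library per point. The pluripotency sum goes from 2397 FPKM in the control to 196 at 0 days and 297 at 6 days, while the endoderm and epithelium sums are highest at 10 days.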

How the data were processed

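The deposited values are FPKM, per the file headers, with 1 column for each of 4 libraries. Per the submitters' processing notes, the authors used Trimmomatic, TopHat and Cufflinks with the mm10 build. Versions, annotation, strandedness and filters: not given in the sources used here. Since FPKM divides by length and library total, very abundant transcripts lower all other values of their library. The 10201 rows held 9997 symbols, of which 177 had several rows, which were summed. Each of the 10 genes had 1 row. Genes were compared on log2(FPKM + 1) where at least 1 library reached 1 FPKM, and called at 2-fold. No test was possible with 1 library per group. Depth came from genes with a single annotated transcript of 800 nt or more in GENCODE M21, as the median FPKM times kilobases between 0.02 and 0.05. Gene positions are from GENCODE M21 (mm10). The 10 genes, the 20 other lists and the rule for named genes were chosen with earlier results of these data known. By that rule the text names the 10 genes, list members with large differences, paralogs, and genes from among the 3 nearest courses of each gene. Which of these 3 were named was chosen after their values were seen. List members with other courses were chosen after their values were seen. Some lists are small because genes were not analysed here. Alternatives were pseudocounts of 0.1 and 0.5, no filter, a minimum of 5 FPKM, a 4-fold threshold, scaling by median ratio or upper quartile, and the highest row of a repeated symbol. Python 3.11.15, numpy 2.4.6, pandas 2.3.3 and matplotlib 3.10.9 were used.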

Additional observations from a re-analysis of the deposited data

How the results depend on the processing

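The counts of the 10 genes called, lower and higher in the 5 comparisons were recomputed under 8 alternatives each. Removing the filter, the 5 FPKM minimum and the highest row of a repeated symbol could not change these counts. Each of the 10 genes had 1 row and 52.3 FPKM or more in the control. The number called is also the sum of those lower and higher, so the counts are not independent. Of the 120 counts, those fixed in advance included, 114 stayed within 1.5 times the reported count. The other 6 concern 10 against 6 days, where 1 gene in place of 0 was called, and was lower: Dppa2, with pseudocounts of 0.1 and 0.5 and under upper-quartile scaling. No gene changed direction under any alternative. A 4-fold threshold left 2 of the 3 genes higher at 6 against 0 days and 9 of 10 lower at 6 and 10 days against the control, Fbxo15 being the exception. Median-ratio and upper-quartile scaling moved the median of all genes by 0.12 and 0.19 at 0 days against the control, by 0.14 and 0.19 at 6 days against the control, and by 0.15 and 0.08 at 10 days against the control. Upper-quartile scaling moved it by -0.11 at 10 against 6 days. The kept share of the control level at 0 days then had a median of 8.60% and 9.12% in place of 7.66%. Higher genes among all called went from 55.2% to 64.6% and 67.6% at 6 days against the control.  A pseudocount of 0.1 gave 1111 higher genes for 720 at 0 days, 473 lower genes for 287 at 6 against 0 days, and 185 lower and 363 higher genes for 50 and 218 at 10 against 6 days. A pseudocount of 0.5 gave 98 lower genes there. Upper-quartile scaling gave 497 lower genes for 752 at 0 days and 76 for 50 at 10 against 6 days. No paired analysis was possible because each group has 1 library, and none could be left out.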

Other observations

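The protein-coding genes on either side of the 10 pluripotency genes were read as well, 2 on each side. Of 25 such neighbours at 1 FPKM or more, 7 were lower than in the control at 0 days and 4 were higher. The 7 include Morc1, also on the list of other pluripotency genes, and Aire, which overlaps Dnmt3l. They also include Gm4737, which lies 2128656 bases from Dppa4. Over all genes 12.8% were lower and 12.2% higher. The median difference of log2(FPKM + 1) was -0.37 for the neighbours and -0.04 over all genes. Some of the lower calls were close to 2-fold, such as Tcf19 (-1.02) and Gabpa (-1.03), and the count was not repeated under other scalings. Dppa2 and Dppa4, which neighbour each other, are not counted. The largest loss was in Morc1, which lies beyond Dppa2 on chromosome 16, 111514 bases away, and was at 28.8 FPKM in the control and 1.31 at 0 days. Unlike Dppa2 and Dppa4 it was higher again at 6 days, at 5.28 FPKM. Tcf19, 1962 bases from Pou5f1, was at 15.7, 7.27, 10.3 and 8.41 FPKM from the control to 10 days. Beside Fbxo15, Cyb5a, a cytochrome b5 gene, was at 85.7, 36.9, 122 and 125 FPKM. H2-Q7, a class I MHC gene upstream of Pou5f1, went the other way, at 0.255 FPKM in the control and 9.73 at 0 days, within a family of near-identical copies whose reads may have been split. These neighbours were chosen by position, and those named here after their values were seen.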
